A study of Mus musculus with 2 samples.

Results

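The genes described here are the cytokines and receptors that signal through gp130, together with their feedback inhibitor: the ligand genes Il6, Osm, Lif, Il11 and Clcf1, the receptor genes Il6st (which encodes gp130), Il6ra, Osmr and Lifr, and Socs3. They were chosen by symbol, 10 of the 32285 genes in the count tables, and each symbol occurred once. The cells came from calvarial (skull vault) defects of C57BL/6 mice and were measured by droplet single-cell RNA sequencing in 2 libraries. Mice of the GA library received gambogic amide, a small molecule agonist of the nerve growth factor receptor TrkA, by intraperitoneal injection at 1.2 mg/kg in 10% DMSO as the labels give it (the methods of the study give a higher dose), and mice of the control library received 10% DMSO alone. Both were given 100 μL a day for 1 week from 24 h before injury, and a piece of bone of about 3 mm edge length around the defect was digested with collagenase on day 7. According to the methods of the study the animals were male and 2 months old, the frontal bone defect measured 1.8 mm, and each library pooled the cells of 5 mice. Each condition is therefore 1 pooled library, so no difference between GA and control has a replicate check and no p-value is given.

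Gp130 has no ligand specificity of its own. Interleukin-6 and interleukin-11 first bind an alpha receptor and then recruit gp130, oncostatin M (Osm) signals through gp130 paired with the oncostatin M receptor, and leukaemia inhibitory factor (Lif) and cardiotrophin-like cytokine factor 1 (Clcf1) use gp130 paired with the Lif receptor. The paired chains activate Janus kinases and the transcription factor STAT3, which switches on Socs3, whose protein binds gp130 and ends the signal. In bone, these cytokines act on osteoblasts and on their precursors as well as on immune cells, and oncostatin M from myeloid cells is known for promoting bone formation.

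After filtering, 8380 GA cells and 7553 control cells remained, with a median of 10968.5 and 16299 unique molecular identifiers (UMIs, 1 for each captured transcript) and 160570724 and 183666732 UMIs in all. They fell into 15 classes that were named from marker genes and are written as "like" because the names were rebuilt here, and 3 small clusters stayed without a name. Bone was represented by 76 GA and 58 control osteoblast-like cells, led by Bglap, Bglap2 and Ibsp. The class shares differed between the libraries: neutrophil-like cells made up 52.6% of GA and 27.6% of control cells, mesenchymal-like cells 9.42% and 22.1%, and macrophage or monocyte-like cells 15.3% and 23.4%. Transcripts of other cells were also present in each class. The summed level of S100a8, S100a9, Ngp and Camp in mesenchymal-like cells was 1.93% of its level over the whole GA library and 0.857% in control. A level is given as UMIs of a gene per 1000000 UMIs of the class (CPM), with its exact 95% Poisson interval in brackets where shown, and a ratio as log2 of GA over control with an exact binomial interval. A value given in pairs is for GA first and control second. These intervals cover counting error and nothing of the difference between mice.

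Osm and its receptor were held by different cells, while the other main ligands shared theirs with Osmr. Il6, Lif and Il11 transcripts lay mostly in mesenchymal-like cells, and Osm transcripts mostly in neutrophil-like and macrophage or monocyte-like cells. Osmr transcripts lay almost wholly in mesenchymal-like cells, with 94.3% of the UMIs in GA and 95.3% in control. Il6ra transcripts were mainly in macrophage or monocyte-like cells (46.7% in GA and 54.4% in control). Neutrophil-like cells followed in GA with 27.4%, while in control neutrophil-like and mesenchymal-like cells each held 14.2%. Since the 2 libraries held these classes in different shares, the level over all cells and the level within a class moved apart. Over all cells, the Osm ratio was 0.80 (0.77 to 0.84), while within neutrophil-like cells it was -0.16 and within macrophage or monocyte-like cells 0.13. In the same way the ratio of Il6 over all cells was -0.68 (-0.72 to -0.64), and within mesenchymal-like cells it was 0.02 (-0.02 to 0.07). The ratio of Osmr was -1.02 over all cells and -0.14 within mesenchymal-like cells.

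**Figure D1:**
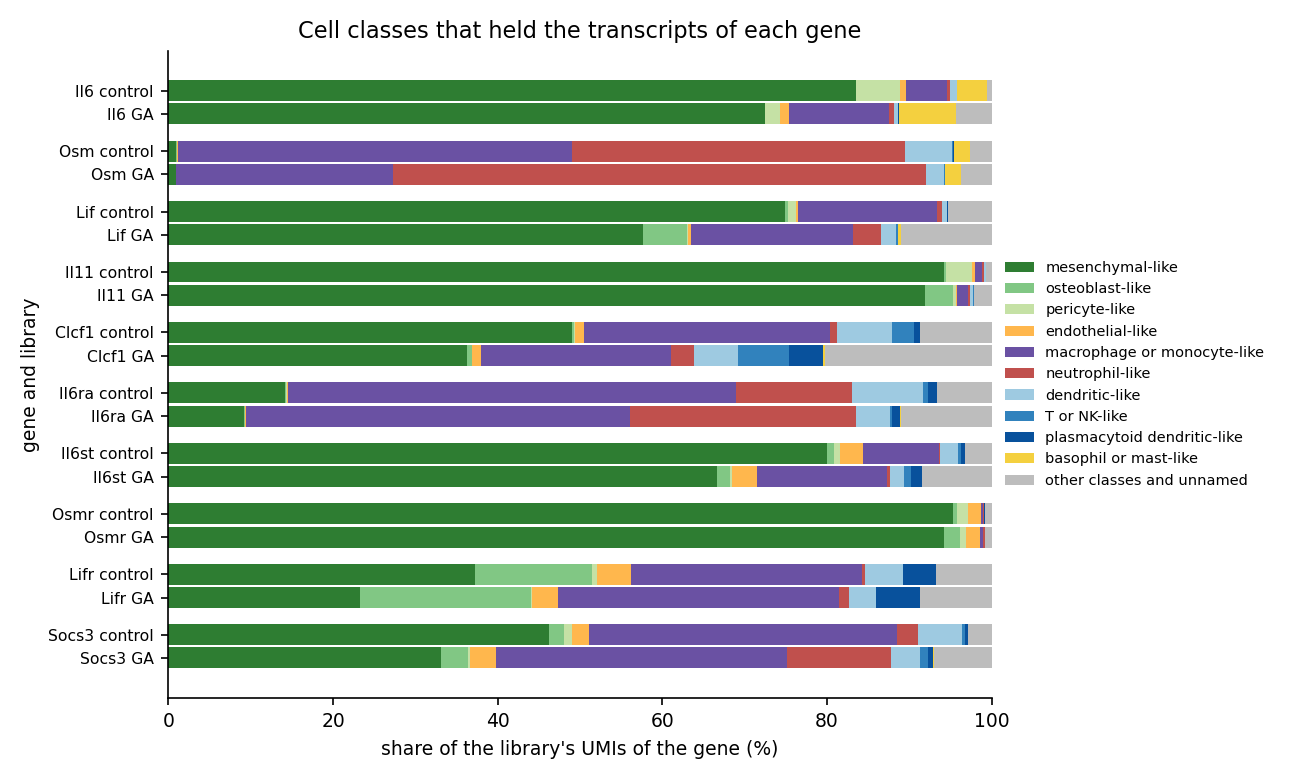
Share of each library's UMIs of a gene (x axis, %) that lay in each cell class (colours), for the control and GA libraries (1 bar each). The Osm bars differ in colour, with 40.4% of control and 64.8% of GA UMIs in neutrophil-like cells, while the Osmr and Il11 bars are over 90% mesenchymal-like in both libraries.

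Among the ligands, Il6, which encodes interleukin-6, was led by mesenchymal-like cells in both libraries, at 141 CPM (137 to 144) in GA and 139 CPM (136 to 141) in control. These cells held 72.5% of the GA and 83.6% of the control UMIs. Over the 10 classes with at least 50 cells in each library, macrophage or monocyte-like cells followed with 33.6 and 19.3 CPM, and dendritic-like cells with 11.7 and 22.4 CPM. The ranges of these last classes over the libraries overlapped, and both lay below the mesenchymal-like values. The remaining classes had levels under 9 CPM. With each cell thinned to 3000 UMIs, 19.3% of GA and 19.6% of control mesenchymal-like cells had an Il6 UMI (49.9% and 48.5% unthinned, at median depths of 51946 and 51401 UMIs). In neutrophil-like cells, with median depths of 7059 and 5091.5 UMIs, the thinned shares were 0.532% and 0.73%.

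Some small classes had higher Il6 levels than the mesenchymal-like cells. Basophil or mast-like cells, 33 in GA and 34 in control, had 1612 and 1520 CPM. Within them, most Il6 UMIs came from cells with more Mcpt8 and Prss34 (basophil proteases) than Mcpt4, Cma1 and Tpsb2 (mast cell proteases), of which GA had 30, with 540 UMIs, and control 24, with 479 UMIs. The 5 of these cells with most UMIs held 52.8% of the GA and 66.2% of the control count. The split by proteases was made after the values were seen. Pericyte-like cells had 1175 CPM in the 27 control cells and 1707 CPM in GA, where the class held 5 cells.

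Within the mesenchymal-like class, Il6 differed more between clusters than between libraries. The clusters were drawn from these same counts with the libraries aligned, so this is a description and no test. Cluster 10, led by Clec3b, Mmp3, Scara5 and Cxcl5, had the highest level, with 306 CPM (297 to 316) in GA and 357 CPM (350 to 365) in control. Clusters 9 (Adamts19, Barx2), 18 (Tnmd, Scx) and 21 (Eln, Igf2) lay between 36.9 and 93.7 CPM in both libraries, far below it. In cluster 18 the level was higher in GA, 56.8 and 36.9 CPM (ratio 0.62, 0.47 to 0.77), with 49.4% of the GA count in 5 cells. Clustered again on their own, mesenchymal-like cells carrying the stem markers of the study's Stem 2 group had 195 and 273 CPM, those carrying multilineage progenitor markers 72.9 and 35.4 CPM, and osteoblast-like cells under 1 CPM. The cells with multilineage progenitor markers thus had a higher Il6 level in GA (ratio 1.04, 0.85 to 1.24), although 5 cells held 68.6% of the GA count. The Stem 2 cells had a lower one (-0.49, -0.54 to -0.43). The Stem 2 group pooled subclusters whose shares differed between the libraries. The subcluster led by Gm43154 and Adamts19 held 174 of 359 GA and 179 of 475 control cells. The one led by Cxcl3 and C3 held 75 and 182. The part of this make-up in the Stem 2 differences of Il6 and other members was not tested.

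In macrophage or monocyte-like cells the Il6 ratio was 0.80 (0.66 to 0.93). The make-up of this class differed between the libraries, since cluster 11 (Arhgef37, Ccr2) held 514 of 1278 GA cells, the largest cluster there, and cluster 12 (Arg1, Mmp12) held 866 of 1770 control cells. Cluster 11 had the most Il6 in both libraries, with 51 CPM in GA and 59.5 CPM in control, a ratio of -0.22. Cluster 12 had 25.9 and 15.5 CPM, and cluster 14 (Fcrls, Apoe) 11.2 and 9.37 CPM. With the clusters weighted alike in both libraries the class ratio was 0.17, under the 1.5-fold mark.

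Osm, which encodes oncostatin M, was highest in neutrophil-like cells among the larger classes, with 250 CPM (245 to 255) in GA and 279 CPM (271 to 288) in control. Macrophage or monocyte-like cells followed with 141 and 129 CPM, and dendritic-like cells with 113 and 102 CPM, and these 3 classes did not overlap over the libraries. Basophil or mast-like cells had more, 853 and 590 CPM. Neutrophil-like cells held 64.8% of the GA and 40.4% of the control Osm UMIs, and macrophage or monocyte-like cells 26.3% and 47.9%. After thinning to 3000 UMIs, 43.9% and 45.5% of neutrophil-like cells had an Osm UMI, against 1.14% and 0.42% of mesenchymal-like cells (63.9%, 59.9%, 9.25% and 5.76% unthinned).

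Osm differed between the neutrophil-like clusters. Cluster 6 (Chil3, Fcnb, Camp), the cells with early granule genes, was lower in GA, with 54.4 CPM in GA and 83.3 CPM in control. Cluster 5 (Ltf, Ngp) had 242 and 235 CPM, cluster 3 (Mmp8, Retnlg) 290 and 272 CPM, and cluster 0 (Cass4, Lypd6b) 530 and 508 CPM. Clusters 2 (Cstdc4, Stfa2) and 4 (Krt83) lay between 353 and 373 CPM. These 6 clusters stood in the same order in both libraries, with cluster 6 lowest and cluster 0 highest. Cluster 1, led by Acod1, broke from this, with 338 CPM (321 to 355) in GA and 578 CPM (544 to 614) in control, a ratio of -0.78 (-0.89 to -0.66). Of its 3 members with at least 100 UMIs, 1 (Osm) was at least 1.5-fold lower, where 8.1% of all 4385 genes of the cluster were, and 0 were higher, where 3.92% were. When the same neutrophil-like cells were clustered on their own, subcluster 11 (Cxcl3, Abcc1, Prdm1) had 348 and 607 CPM. It rests on the same counts and is no separate check. Cluster 1 held 21% of the GA and 23.7% of the control neutrophil-like cells. The ratio over the whole class was -0.16, and -0.02 relative to the median of all genes of the class, which was -0.14.

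Osm in mesenchymal-like cells was low, at 3.28 CPM in GA (144 UMIs) and 1.13 CPM in control (106 UMIs), a ratio of 1.54. The 5 cells with most UMIs held 43.1% of the GA count. A subcluster of 17 GA and 3 control cells among them was led by S100a8, Lcn2, Ngp and Wfdc21, which are neutrophil genes, and had 58.3 and 15.3 CPM of Osm. Without these cells the ratio was 0.61. The level that the neutrophil background share alone would give was 1.97 CPM in GA and 0.504 CPM in control, and the part of background in this difference was not tested further.

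Lif, which encodes leukaemia inhibitory factor, was lower in the GA library in both classes that held most of it. In mesenchymal-like cells it stood at 10.6 CPM (9.61 to 11.6) in GA and 19.6 CPM (18.7 to 20.5) in control, a ratio of -0.89 (-1.04 to -0.75). In macrophage or monocyte-like cells it stood at 5.14 CPM (4.37 to 6.01) and 10.3 CPM (9.38 to 11.4), a ratio of -1.01 (-1.28 to -0.74) and of -1.12 relative to the median of all genes of the class, which was 0.11. The intervals of the libraries did not overlap in either class. With the clusters weighted alike the ratios were -0.81 and -1.02. The make-up within the clusters was not weighted, and its part in the difference was not tested. Among macrophage or monocyte-like clusters the control level was the higher in cluster 11 (5.65 and 8.66 CPM), cluster 12 (5.94 and 12.6 CPM) and cluster 14 (2.59 and 7.03 CPM).

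Among the mesenchymal-like clusters, Lif was lower in GA in cluster 9, at 9.43 and 22.7 CPM (ratio -1.26, -1.51 to -1.02), in cluster 10, at 6.68 and 16.5 CPM (-1.31, -1.66 to -0.96), and in cluster 18, at 17.0 and 23.4 CPM (-0.46). Cluster 21 had 14 and 12.1 CPM, with 23 UMIs in GA, too few to tell a direction. A few cells held much of the gene: the 5 with most UMIs carried 28.3% of the mesenchymal-like GA count and 10% of the control count, and without them the ratio was -1.22. By the markers of the study's subpopulations, Lif stood at 6.54 and 15.5 CPM in Stem 2 cells and at 4.94 and 32 CPM in dividing Stem 1 cells (37 GA and 99 control cells), both lower in GA. Cells with multilineage progenitor markers had 18.4 and 11.3 CPM, a ratio of 0.70 (0.32 to 1.08) in the other direction with 57% of the GA count in 5 cells, and osteoblast-like cells 13.8 and 4.06 CPM on 43 and 10 UMIs. Osteoclast-like cells (30 in GA, 63 in control) had the highest Lif level of the 15 classes, 30.2 and 36.3 CPM, with 71.4% and 44.4% of the UMIs in 5 cells.

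Il11, which encodes interleukin-11, was nearly confined to mesenchymal-like cells, which held 91.9% of the GA and 94.2% of the control UMIs. Its level there was 16.3 CPM (15.1 to 17.6) in GA and 21.8 CPM (20.9 to 22.8) in control, a ratio of -0.42 (-0.54 to -0.30). Immune classes with at least 50 cells in each library stood under 1 CPM. The difference lay in cluster 9, at 18.9 CPM (17.0 to 20.9) and 42.5 CPM (40.1 to 45.1), a ratio of -1.17 (-1.34 to -0.999). In cluster 10 the levels were 18.1 and 17.7 CPM, in cluster 18 9.95 and 10.9 CPM, and in cluster 21 it was 11 CPM in both libraries. Cluster 9 held 37% of the GA and 21.2% of the control mesenchymal-like cells, and with the clusters weighted alike the class ratio was -0.62. In cluster 9 the 5 cells with most UMIs held 43.1% of the GA and 26.8% of the control count. By the markers of the study's subpopulations, Il11 was lower in GA in Stem 2 cells, at 19.3 and 35.7 CPM (-0.89, -1.06 to -0.72). It was also lower in dividing Stem 1 cells, at 9.54 and 24.1 CPM (-1.34, -1.95 to -0.77) on 29 and 223 UMIs. There 5 cells held 55.2% and 52.9% of the UMIs. Cells with multilineage progenitor markers went the other way, with 8.10 and 5.10 CPM (0.67, 0.08 to 1.23). This rested on 41 and 75 UMIs, with 75.6% of the GA and 64% of the control count in 5 cells. Osteoblast-like cells also had more in GA, with 8.67 and 2.43 CPM (1.83, 0.53 to 3.40) on 27 and 6 UMIs. Pericyte-like cells of the control library had 95.7 CPM, most of it (91.2%) in 5 cells.

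Counted in both directions, 2 of the 10 members with at least 100 UMIs in cluster 9 were at least 1.5-fold lower in GA (Lif and Il11), where 4.6% of all genes were, and 2 were higher (Osm and Il6ra), where 5.76% were. In cluster 10, 2 of 9 (Lif and Clcf1) were lower, against 4.77% of all genes, and 1 (Il6ra) was higher, against 6.43%. In cluster 18, 0 of 9 were lower, against 2.71%, and 2 (Il6 and Il6ra) were higher, against 4.61%. In cluster 21, 1 of 9 (Clcf1, on 11 GA UMIs) was lower, against 6.98%, and 0 were higher, against 9.75%. Among the macrophage or monocyte-like clusters Lif was the member past the fold on the lower side in each. It was 1 of 7 in cluster 11, against 6.01% of all genes, 1 of 8 in cluster 12, against 2.9%, and 1 of 8 in cluster 14, against 2.49%. On the higher side there were 0 of 7 in cluster 11, against 6.16%, 1 of 8 in cluster 12 (Il6), against 4.52%, and 1 of 8 in cluster 14 (Lifr), against 5.4%.

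**Figure D2:**
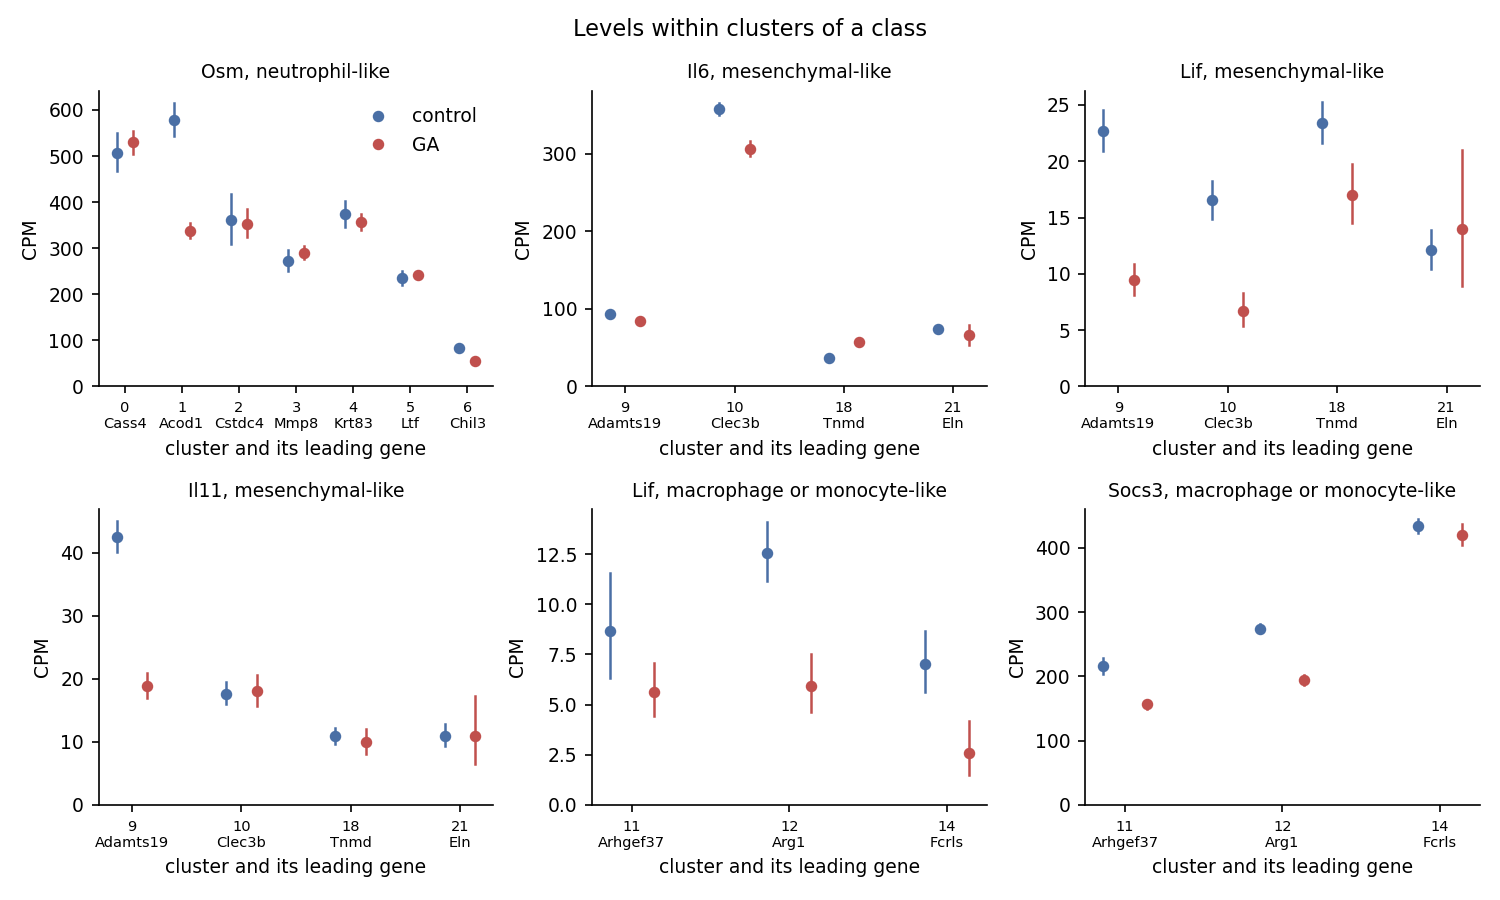
Levels (y axis, CPM, from 0) of 5 members in the clusters of a class (x axis, cluster number and leading gene) in control (blue) and GA (red), with exact 95% Poisson bars. GA lay below control for Osm in clusters 1 and 6, for Lif in clusters 9, 10, 12 and 14 and for Il11 in cluster 9. Il6 was highest in cluster 10 in both libraries.

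Il6, Il11 and Lif, 3 of the 5 ligand genes, shared a sequence feature at their promoters that their selection did not use. The windows of 250 bases before a RefSeq start site (build GRCm38.p6) were searched on both strands for the AP-1 motif TGAGTCA, which Fos and Jun proteins bind, read as TGACTCA from the other strand, and for the STAT motif TTCNNNGAA. The motifs did not overlap. The table held 10 windows for 8 of the genes and none for Osm and Clcf1. The AP-1 motif was in 3 of the 10 windows, against 4.46% of all 32851 windows, and the STAT motif in 1, that of Socs3, against 7.02%. The 4 windows with a match are printed, for 3 ligands of mesenchymal-like cells and the target gene of the pathway, and the motif is in capitals. The match began 249 bases before the start site in Il6, 98 in Il11, 228 in Lif and 154 in Socs3. The Il6 window is chr5:30012864-30013113 on the plus strand, next to the gene.
Il6: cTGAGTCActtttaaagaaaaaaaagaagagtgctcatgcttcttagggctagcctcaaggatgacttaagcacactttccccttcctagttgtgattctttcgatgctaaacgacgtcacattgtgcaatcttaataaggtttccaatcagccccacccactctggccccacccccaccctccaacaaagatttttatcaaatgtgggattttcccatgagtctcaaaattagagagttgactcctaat
The Il11 window is chr7:4778142-4778391 on the minus strand, inside an intron of longer annotated Il11 transcripts.
Il11: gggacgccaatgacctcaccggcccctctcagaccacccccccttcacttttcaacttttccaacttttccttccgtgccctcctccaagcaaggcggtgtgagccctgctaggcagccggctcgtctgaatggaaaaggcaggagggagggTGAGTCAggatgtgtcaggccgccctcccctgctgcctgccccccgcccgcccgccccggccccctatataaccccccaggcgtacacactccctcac
The Lif window is chr11:4257318-4257556 on the plus strand, and 11 bases nearest the start site were left off because another Lif transcript is annotated there.
Lif: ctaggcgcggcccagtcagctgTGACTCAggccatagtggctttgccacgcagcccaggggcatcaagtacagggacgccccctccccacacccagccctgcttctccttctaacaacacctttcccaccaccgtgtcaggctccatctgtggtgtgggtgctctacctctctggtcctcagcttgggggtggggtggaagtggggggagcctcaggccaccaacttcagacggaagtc
The Socs3 window is chr11:117969367-117969616 on the minus strand, within longer noncoding Socs3 transcripts.
Socs3: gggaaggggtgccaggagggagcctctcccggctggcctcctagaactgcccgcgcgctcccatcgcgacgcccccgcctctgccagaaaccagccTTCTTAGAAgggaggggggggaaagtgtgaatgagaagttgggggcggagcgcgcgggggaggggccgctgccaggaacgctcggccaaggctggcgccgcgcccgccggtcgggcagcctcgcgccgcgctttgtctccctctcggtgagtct
A match is a description of the letters and no sign of binding.

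Clcf1, which encodes cardiotrophin-like cytokine factor 1, had low levels spread over many classes. T or NK-like cells had 25.4 and 22.6 CPM and plasmacytoid dendritic-like cells 27.5 and 13.2 CPM, on fewer than 50 UMIs in each library. Dendritic-like cells had 12.9 and 16.0 CPM, and B-like cells 11 and 10.3 CPM. Most of its UMIs nevertheless lay in mesenchymal-like cells (36.3% in GA, 49% in control) and macrophage or monocyte-like cells (23.1% and 29.9%). In macrophage or monocyte-like cells it was lower in GA, at 5.79 CPM (4.97 to 6.71) and 10.9 CPM (9.95 to 12.0), a ratio of -0.92. With the clusters weighted alike this ratio was -0.50, under the 1.5-fold mark. Clcf1 overlaps another protein-coding gene, AC109138.7, on the same strand, and reads of the shared part cannot be assigned to either.

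Among the receptors, Il6st, the shared gp130 chain, was led by mesenchymal-like cells of the larger classes, with 163 CPM (159 to 167) in GA and 161 CPM (158 to 163) in control. The ratio was 0.02 (-0.02 to 0.06), and within the 4 mesenchymal-like clusters it lay between -0.11 and 0.26. Plasmacytoid dendritic-like cells followed with 120 and 93.6 CPM. Dendritic-like (54.5 and 68.0 CPM), osteoblast-like (50.4 and 63.7 CPM), macrophage or monocyte-like (55.0 and 43.5 CPM) and T or NK-like cells (53.0 and 42.9 CPM) came next, and their ranges overlapped. Neutrophil-like cells, the class with most Osm, stood at 1.08 and 0.959 CPM, where the background share alone would give 0.87 and 1.32 CPM, so gp130 transcripts were not detectable above background in them. Basophil or mast-like cells had 0 Il6st UMIs in both libraries, which allows levels of up to 8.20 and 8.23 CPM (3 UMIs of the total). Endothelial-like cells had the highest level, 360 CPM in GA and 250 CPM in control. In GA, 22 of the 51 endothelial-like cells had fewer than 3000 UMIs, 5 cells held 61.3% of the Il6st UMIs, and the summed neutrophil genes stood at 5.86% of their library level (0.686% in control).

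Il6ra, the interleukin-6 receptor, had another distribution. Macrophage or monocyte-like cells had 139 CPM (135 to 143) in GA and 104 CPM (101 to 107) in control, dendritic-like cells 120 and 107 CPM, plasmacytoid dendritic-like cells 77.3 and 97.2 CPM, and neutrophil-like cells 58.9 and 69.6 CPM. The macrophage or monocyte-like and dendritic-like values overlapped over the libraries and the others did not. The macrophage ratio was 0.42 (0.36 to 0.48), and 0.31 relative to the class median. Cluster 11 had the highest Il6ra level, 188 CPM in GA and 243 CPM in control (ratio -0.37), and with the clusters weighted alike the class ratio was 0.0044. Il6ra was higher in neutrophil-like cluster 0 (180 and 263 CPM) than in cluster 6 (13.7 and 14.7 CPM), the same order as for Osm. In mesenchymal-like cells it was low but higher in GA, at 19.3 CPM (18 to 20.6) and 11.6 CPM (10.9 to 12.3), a ratio of 0.73 (0.60 to 0.87), where the background share alone would give 1.10 and 0.358 CPM. This ratio was 0.93 in cluster 10, 1.09 in cluster 18 and 0.71 in cluster 9. In cluster 21 it was -0.36 (-1.06 to 0.26), at 13.4 and 17.3 CPM with 22 UMIs in GA. An antisense gene, Gm42809, overlaps Il6ra on the other strand.

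Osmr, the oncostatin M receptor, was the most restricted member. Mesenchymal-like cells had 139 CPM (136 to 143) in GA and 153 CPM (150 to 155) in control, a ratio of -0.14 (-0.18 to -0.09). Osteoblast-like cells had 40.1 and 34.9 CPM, endothelial-like cells 120 and 117 CPM, and pericyte-like cells 532 and 264 CPM on 5 and 27 cells. Every immune class with at least 50 cells in each library stood below 2 CPM. Cluster 10, which had the most Il6, also had the most Osmr of the mesenchymal-like clusters, 201 and 223 CPM.

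Lifr, the leukaemia inhibitory factor receptor, was led by osteoblast-like cells, with 220 CPM (203 to 237) in GA and 264 CPM (245 to 286) in control. Plasmacytoid dendritic-like cells had 149 and 218 CPM, and endothelial-like cells 114 and 91.9 CPM. Mesenchymal-like cells stood far lower, at 17.5 and 18.1 CPM (ratio -0.05, -0.17 to 0.08). Among them, cells with multilineage progenitor markers had 61.2 and 40.1 CPM, the nearest to the osteoblast-like value. Lifr was thus higher in osteoblast-like cells than in their neighbours, and Osmr lower. In macrophage or monocyte-like cells Lifr had 36.7 and 32 CPM, with cluster 14 at 68.7 and 38.1 CPM (0.85, 0.66 to 1.04). T or NK-like cells had 0 Lifr UMIs in both libraries, which allows levels of up to 1.59 and 1.69 CPM.

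Gp130 signals together with a partner chain. The share of cells with a UMI of both was therefore counted after each cell was thinned to 3000 UMIs. This share does not count responding cells, since the interleukin-6 receptor also has a soluble form. Il6st with Osmr was found in 13.6% (11.2 to 16.2) of 789 GA and 13.5% (11.9 to 15.2) of 1667 control mesenchymal-like cells, and in 91.3% and 91.1% of them unthinned. It was found in 0 of 1270 GA and 0 of 1765 control macrophage or monocyte-like cells, which allows shares of cells with both UMIs at this depth of up to 0.236% and 0.17% (0.861% and 1.19% of all cells unthinned), and in 1 of 4326 GA and 0 of 1917 control neutrophil-like cells (up to 0.156%). The pair of Il6st and Osmr was thus rarely seen in the cells with most Osm transcript. Il6st with Il6ra was found in 4.33% (3.28 to 5.60) of GA and 4.31% (3.41 to 5.36) of control macrophage or monocyte-like cells, and in 52.1% and 43.2% unthinned. In mesenchymal-like cells, which held most Il6, this pair was found in 2.92% and 1.74%, and in 44.5% and 35.4% unthinned. In dendritic-like cells it was found in 3.82% and 7.14%, with overlapping intervals, and in neutrophil-like cells, where Il6ra was present, in 0.0693% and 0.0522%. Thinning left out 78 GA and 167 control neutrophil-like cells and 8 and 5 macrophage or monocyte-like cells. Il6st with Lifr was found in 5.48% and 7.02% of osteoblast-like cells, 4 cells in each library, and in 11.1% and 4.17% of plasmacytoid dendritic-like cells, 8 and 3 cells. Endothelial-like cells had it in 10.3% and 10.6%, 3 and 5 cells. The shares were 1.65% and 2.22% in mesenchymal-like cells (43.2% and 43.9% unthinned) and 1.89% and 0.907% in macrophage or monocyte-like cells (22.4% and 18.4% unthinned). A thinned share rests on about 1 UMI a cell, and no change between the libraries is read from these.

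**Figure D3:**
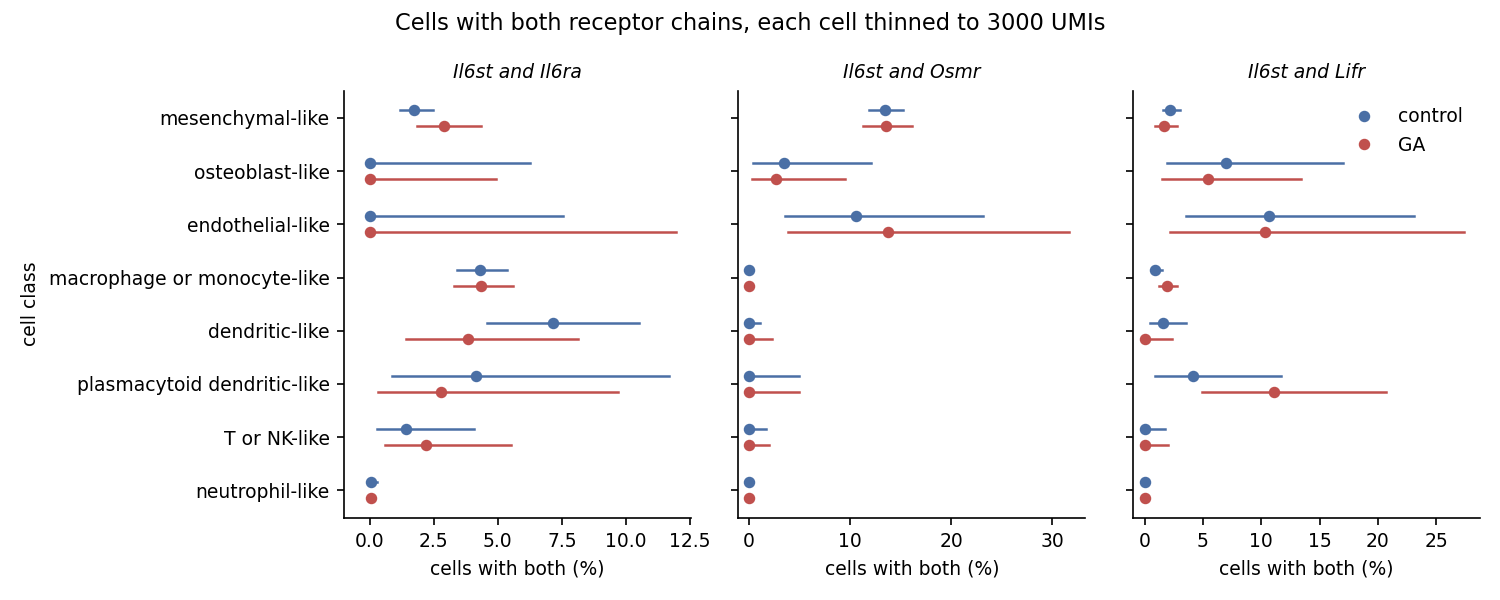
Share of cells (x axis, %) with at least 1 UMI of Il6st and of Il6ra, Osmr or Lifr (panels) after thinning to 3000 UMIs, by cell class (y axis), with exact 95% binomial bars, control in blue and GA in red. Il6st with Osmr was seen in mesenchymal-like, osteoblast-like and endothelial-like cells, at 13.6% and 13.5% in mesenchymal-like cells, and not in macrophage or monocyte-like or dendritic-like cells.

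Socs3, the feedback inhibitor and STAT3 target, had its highest levels among the larger classes in macrophage or monocyte-like cells, at 224 CPM (218 to 229) in GA and 316 CPM (310 to 321) in control, and in dendritic-like cells, at 221 and 299 CPM. Osteoblast-like cells had 200 and 256 CPM and mesenchymal-like cells 147 and 167 CPM. The values of the macrophage or monocyte-like, dendritic-like and osteoblast-like cells overlapped over the libraries. In these 4 classes the control level was the higher, with ratios of -0.50 (-0.54 to -0.46), -0.44 (-0.56 to -0.31), -0.36 (-0.52 to -0.20) and -0.18 (-0.22 to -0.14), none past 1.5-fold. The macrophage ratio was -0.61 relative to the class median and -0.30 with the clusters weighted alike. The mesenchymal ratio was 0.07 with the clusters weighted alike, so its direction depended on this weighting. Among the study's subpopulations, Socs3 was lower in GA in Stem 2 cells (104 and 144 CPM) and dividing Stem 1 cells (34.6 and 74.6 CPM). The subclusters of the Stem 2 group had different shares in the libraries, and their part in this difference was not tested. Socs3 was higher in GA in cells with multilineage progenitor markers (337 and 309 CPM), fibroblastic progenitor markers (195 and 158 CPM) and no name (159 and 150 CPM). The fibroblastic progenitor values came from 45 GA and 354 control cells, with 42.2% and 9.96% of the UMIs in 5 cells. In neutrophil-like cells the levels were 57.6 and 54.7 CPM with Il6st at background there. Socs3 is known as a target gene of other cytokine receptors too.

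Within the macrophage or monocyte-like class, cluster 14 (Fcrls, Apoe) had the most Socs3, 420 CPM in GA and 434 CPM in control, a ratio of -0.05. The lower GA level lay in cluster 12 (194 and 274 CPM, ratio -0.50) and cluster 11 (157 and 216 CPM, ratio -0.46). Of the mesenchymal-like clusters, 18 (263 and 252 CPM) and 10 (216 and 210 CPM) were high and 9 (37.1 and 50.3 CPM) was low. Among neutrophil-like clusters the level went from 7.00 and 8.38 CPM in cluster 6 to 218 and 215 CPM in cluster 0. The clusters thus differed far more than the libraries, which describes clusters drawn from these same counts with the libraries aligned. Endothelial-like cells had 692 and 341 CPM, with 71.6% of the GA UMIs in 5 cells.

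**Figure D4:**
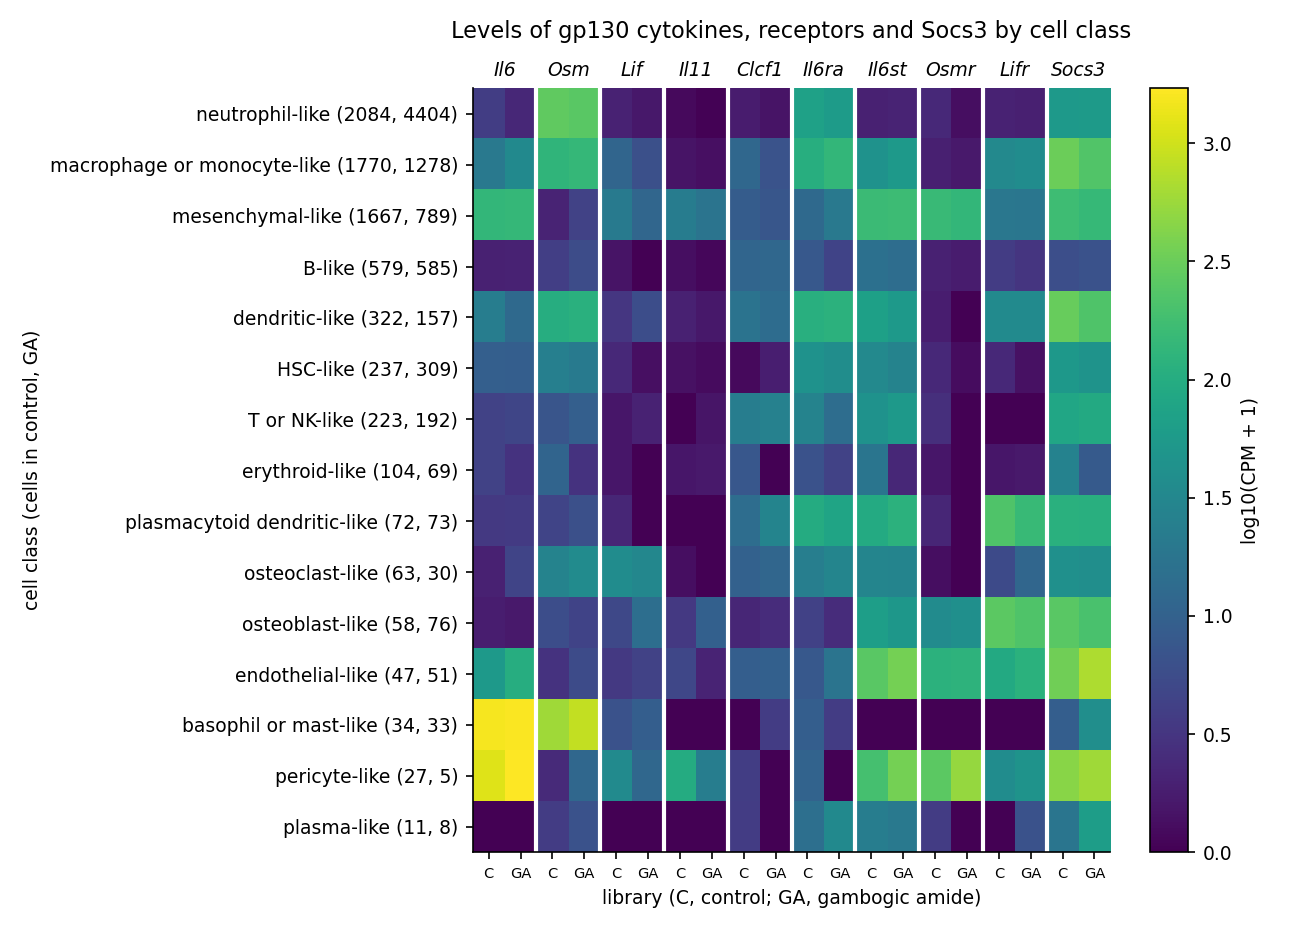
Levels of the 10 members (columns, control and GA side by side) in 15 cell classes (rows, with cell numbers) as log10(CPM + 1), where lighter is higher. Il6 is lightest in basophil or mast-like and pericyte-like cells, Osm in basophil or mast-like and neutrophil-like cells, and Osmr is dark in every immune class.

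Within classes, few members were at least 1.5-fold apart between the libraries among those with at least 100 UMIs over both. In mesenchymal-like cells 2 of 10 were higher in GA (Osm and Il6ra), where 5.35% of all 14028 genes were, and 1 of 10 was lower (Lif), where 6.72% were. In macrophage or monocyte-like cells 1 of 8 was higher (Il6), against 10.7% of 11622 genes, and 2 of 8 were lower (Lif and Clcf1), against 6.18%. In neutrophil-like cells 0 of 4 were higher, against 1.13% of 9550 genes, and 1 of 4 was lower (Il6, on 56 and 44 UMIs), against 6.95%. In dendritic-like cells 0 of 7 were higher, against 4.52% of 7493 genes, and 1 of 7 was lower (Il6, on 37 and 137 UMIs), against 4.22%. The other members with enough UMIs stayed within 1.5-fold. The median ratio of the members was -0.09 in mesenchymal-like cells, beside -0.01 over all genes, and 0.16 beside 0.11 in macrophage or monocyte-like cells.

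**Figure D5:**
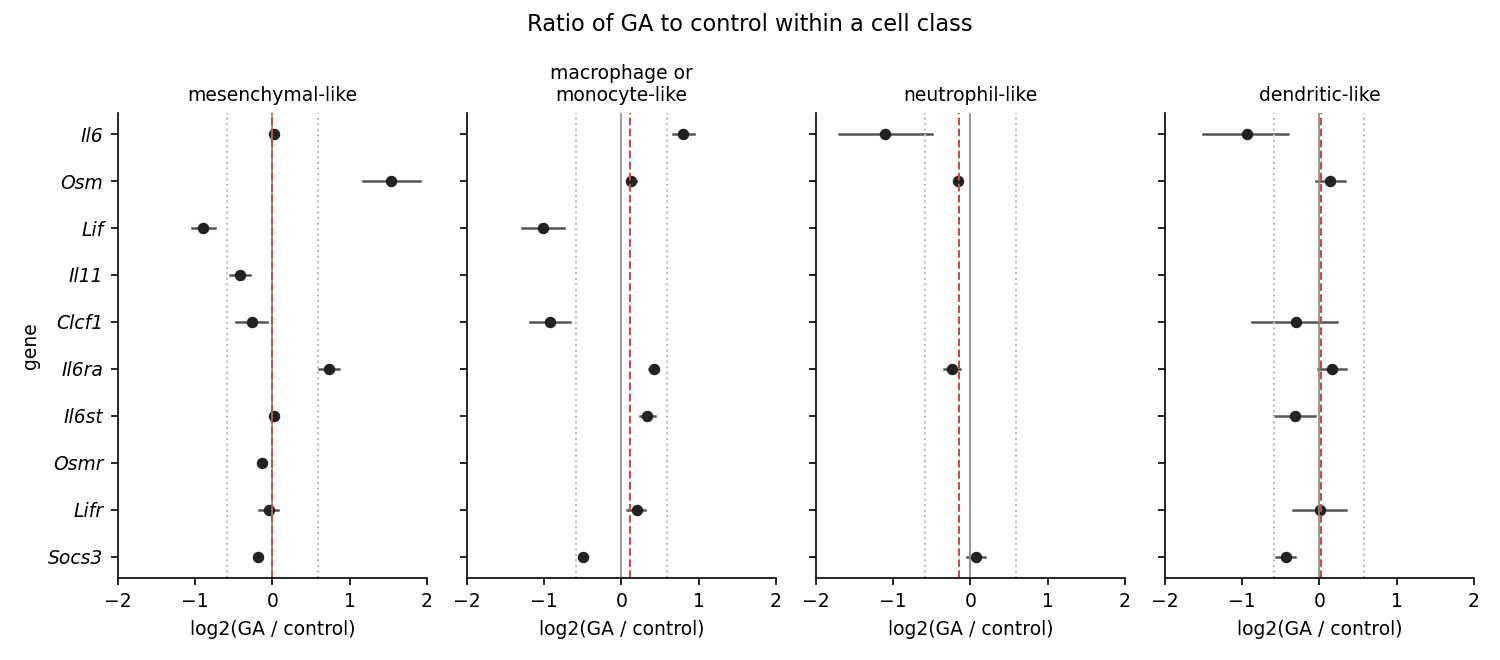
Log2 ratio of GA to control (x axis) of each member with at least 100 UMIs (y axis) in 4 cell classes, with exact 95% binomial bars. Dotted lines mark 1.5-fold and the red dashed line the median of all genes of the class. Lif lay below the lower dotted line in mesenchymal-like and macrophage or monocyte-like cells, at -0.89 and -1.01, and Il6 lay at 0.02 and 0.80.

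The rest of the pathway and related genes were read from 6 lists. Of all genes, 5.35% were at least 1.5-fold higher and 6.72% lower in GA in mesenchymal-like cells. The shares were 10.7% and 6.18% in macrophage or monocyte-like, 1.13% and 6.95% in neutrophil-like and 4.52% and 4.22% in dendritic-like cells. Of the other ligands listed, 3 of 7 had 100 UMIs in mesenchymal-like cells and among them Ctf1, which encodes cardiotrophin-1, was lower in GA at 2.48 and 3.75 CPM. Ebi3, a subunit of interleukin-27, had 66.9 and 67.5 CPM in neutrophil-like cells, and its partner Il27 4.62 and 4.60 CPM. Of the other receptors, none of the 2 or 3 measured in a class was past 1.5-fold. Il11ra1, the alpha receptor for interleukin-11, had 194 and 180 CPM in mesenchymal-like cells, the class that held Il11, and 3.19 and 3.71 CPM in neutrophil-like cells. Cntfr had 8.84 and 9.37 CPM in mesenchymal-like cells. The related receptor gene Il31ra was spread over many classes, with 34.2 and 36.9 CPM in macrophage or monocyte-like cells. It had 29.9 and 37.7 CPM in neutrophil-like, 30.4 and 34.8 CPM in erythroid-like and 18.5 and 19.1 CPM in mesenchymal-like cells.

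Of the 9 JAK, STAT and adaptor genes, 1 was lower in GA mesenchymal-like cells (Gab1, 33.8 and 51.8 CPM), against 6.72% of all genes. In macrophage or monocyte-like and neutrophil-like cells 0 were past 1.5-fold. In dendritic-like cells Tyk2 was higher (50.1 and 33.3 CPM) and Stat5a lower (48.5 and 80.1 CPM). Stat3 itself had 217 and 215 CPM in mesenchymal-like cells, 286 CPM in both libraries in macrophage or monocyte-like cells, and 321 and 340 CPM in neutrophil-like cells. Jak1 had 380 and 328 CPM and Jak2 68.5 and 83.5 CPM in mesenchymal-like cells. Of the 7 other inhibitors, Socs2 was lower in GA in mesenchymal-like cells (26.7 and 42.4 CPM) and macrophage or monocyte-like cells (3.32 and 5.51 CPM). The phosphatase Ptpn6 was higher in mesenchymal-like cells at 2.69 and 1.33 CPM, while neutrophil-like cells had 173 and 177 CPM of it. Ptpn1 had 55.8 and 67.1 CPM and Ptpn2 64.5 and 82.5 CPM in mesenchymal-like cells. The sheddases Adam10 and Adam17, which release the soluble interleukin-6 receptor, were past 1.5-fold in 0 of the 4 classes, and Adam17 had 133 and 150 CPM in macrophage or monocyte-like cells.

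Of 12 known STAT3 target genes, 2 were higher in mesenchymal-like cells, against 5.35% of all genes, and 0 lower, against 6.72%. In macrophage or monocyte-like cells 4 of 11 were higher (Cebpd, Lrg1, Lcn2 and Hp), against 10.7%, and 1 lower, against 6.18%. Lcn2, the neutrophil granule protein lipocalin-2, had 65.4 and 8.07 CPM in mesenchymal-like cells and 147 and 10.9 CPM in macrophage or monocyte-like cells, but 9782 and 7963 CPM in neutrophil-like cells. Lrg1 (3.92 and 0.436 CPM in mesenchymal-like cells) had 418 and 180 CPM in neutrophil-like cells. Hp had 359 and 113 CPM in macrophage or monocyte-like cells, and 1476 and 1128 CPM in neutrophil-like cells. The neutrophil genes S100a8, S100a9, Ngp and Camp moved with these, with a summed 1703 CPM in GA and 224 CPM in control mesenchymal-like cells. Their sum was 2777 and 287 CPM in macrophage or monocyte-like cells and 2528 and 647 CPM in dendritic-like cells. The part of neutrophil transcripts in the differences of Lcn2, Lrg1 and Hp in these 3 classes was not tested. Cebpd was higher in GA macrophage or monocyte-like cells (70.3 and 45.4 CPM) and Pim3 lower (27.5 and 43.2 CPM). Junb had 726 and 669 CPM and Timp1 1103 and 1043 CPM in mesenchymal-like cells. The median ratio of the list was 0.10 in mesenchymal-like and 0.03 in macrophage or monocyte-like cells, beside -0.01 and 0.11 over all genes. In neutrophil-like cells 2 of 11 were higher (Lrg1, Saa3), against 1.13% of all genes, and 2 lower (Pim3, Timp1), against 6.95%. In dendritic-like cells 2 of 9 were higher (Lcn2, Hp), against 4.52%, and 1 lower (Timp1), against 4.22%.

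Over 20 profiles (10 classes in 2 libraries, which share depth and background), the genes with the most similar log2(CPM + 1) pattern were taken as a description, 3 for each member. They were Procr, Gm17268 and Rem1 for Il6 (r from 0.91 to 0.92), Lilr4b, Ccr1 and Lilrb4a for Osm (0.97 to 0.98), Tnfrsf12a, Flrt2 and Slc7a2 for Lif (0.93 to 0.94), Piezo2, Carmn and Gm42679 for Il11 (all 0.98), and Pi4ka, Kpna1 and St6gal1 for Clcf1 (0.89 to 0.92). For the receptors they were Gnai2, Cers6 and Alcam for Il6ra (all 0.94), Rtl8b, Lgals1 and Slc39a6 for Il6st (0.95 to 0.97), Gfpt2, Dchs1 and Crispld1 for Osmr (0.98 to 0.99), and Carmil1, Cadm1 and Insig1 for Lifr (0.92 to 0.93). Afdn, Ripk1 and Map7d1 were the closest to Socs3 (0.92 to 0.94). The most alike pair among the members was Il11 and Osmr (r = 0.93), and the least alike Osm and Osmr (r = -0.44), ligand and receptor. The genes Osm and Lif lie 16530 bases apart on chromosome 11, and Osmr and Lifr 215644 bases apart on chromosome 15, with 0 protein-coding genes between them in either case. Across the profiles r was 0.03 for Osm and Lif and 0.39 for Osmr and Lifr.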

How the data were processed

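The counts analysed here were deposited by the authors as 1 gene by barcode matrix of whole-number UMI counts for each library, written by Cell Ranger 7.0.1 per the file headers and not normalized. Barcodes with 500 to 140000 UMIs, 200 to 9500 genes and at most 15% mitochondrial UMIs were kept. Scrublet marked 0 GA and 39 control barcodes (0.447%), too few to have worked, so the highest scores were removed at the droplet rate that grows with the number of barcodes, 656 and 540 cells. The libraries shared 23 barcode sequences, 18 among kept cells, as separate droplets can. Cells were clustered with Scanpy 1.11.5 (Pearson residuals of the 2000 most variable genes at theta 100, Harmony on 50 principal components, 15 neighbours, Leiden resolution 1) into 32 clusters, and classes were named from fixed markers. A gene's UMIs were added up within each class and library, with intervals from SciPy 1.17.1. With 1 library a group no test was run. A gene counts as past the fold at 1.5-fold with at least 100 UMIs over both libraries. The level from background is the gene's library level times the share at which transcripts of other classes occurred in the class. Where more than 1 list of such transcripts was available, the lowest share was used. In mesenchymal-like cells this was the neutrophil list, and the erythroid genes Hba-a1, Hba-a2, Hbb-bs and Hbb-bt stood higher, at 6.53% and 1.37% of their library level.

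The genes named were the 10 members, the 3 genes of each pathway list with most UMIs, the 3 genes most like each member, and genes of the lists past the fold, named after their values were seen. The members, lists and tests were chosen with earlier results of these data known. Promoter windows came from RefSeq (GRCm38.p6) and gene positions from GENCODE on the same build. Other filters, doublet treatment, clustering, naming, scaling, thinning and background subtraction were tried as alternatives, and 3 (clusters weighted alike by their pooled UMIs, without the 5 cells with most UMIs, without mesenchymal cells carrying neutrophil genes) were chosen after seeing the data. Scripts were tested on simulated counts. Some pathway genes are not reported here.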

Additional observations from a re-analysis of the deposited data

Results flagged for a closer look

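Il6 stood out in 1 contrast between classes. Its log2 ratio of GA to control was 0.80 in macrophage or monocyte-like cells and -1.10 in neutrophil-like cells, 1.90 apart, and with 1 library in each group this difference was not tested. The neutrophil-like value rested on 56 and 44 UMIs, and without the 5 cells with most UMIs in each library it was -0.33. Both values depended on the setting, as given under the processing.

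Members were also found in clusters that no marker list named. Il6 stood at 212 CPM in GA and 32.2 CPM in control in cluster 13, led by Fcna, Ccr3, Spic and Cd5l, and 5 cells held 94.3% of its GA and 86.7% of its control UMIs. Osm stood at 31.7 CPM in GA and 9.50 CPM in control in cluster 28, led by the platelet genes Ppbp, Treml1, Gp9 and Gp5.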

How the results depend on the processing

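No paired analysis was possible because each group has 1 library. Under 21 alternative settings, 43 values of the members in their main class moved beyond the counting interval and 130 did not, and of the other values 150 moved, 1 turned and 334 did not. A value counted as moved could also change sign. The 43 are given with the reported log2 ratio first, and their causes were not tested beyond what a setting changes by construction.

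Il6 in mesenchymal-like cells (0.02) was -0.027 with no doublet removal, 0.066 with log1p values, -0.13 with clusters weighted alike, -0.078 without the 5 cells with most UMIs and 0.075 after thinning. Osm in neutrophil-like cells (-0.16) was -0.010 with no doublet removal, -0.016 with no batch correction and relative to the class median, -0.027 at Leiden resolution 2, -0.030 with seed 2, -0.029 with seed 3, -0.069 with each cell named by its own score and -0.24 as a mean of the cells' CPM. Lif in mesenchymal-like cells (-0.89) was -0.72 as a mean of cells, -1.22 without 5 cells and -0.71 after thinning. Il11 there (-0.42) was -0.62 with clusters weighted alike and without 5 cells, and -0.25 after thinning. Il6ra in macrophage or monocyte-like cells (0.42) was 0.31 relative to the median, 0.29 as a mean of cells, 0.0044 with clusters weighted alike and 0.27 after thinning. Il6st in mesenchymal-like cells (0.02) was 0.072 after thinning. Osmr there (-0.14) was -0.090 as a mean of cells, -0.18 with clusters weighted alike and 0.032 after thinning. Lifr in osteoblast-like cells (-0.27) was 0.039 with no doublet removal, -0.068 at a mitochondrial limit of 10%, -0.061 when clustered without members and markers, and -0.52 after thinning. Socs3 in macrophage or monocyte-like cells (-0.50) was -0.33 with no doublet removal, -0.32 at a mitochondrial limit of 10% and at resolution 2, -0.31 with no batch correction, with seed 3 and as a mean of cells, -0.34 with log1p values, -0.35 with cells over 2000 UMIs, -0.54 without members and markers, -0.61 relative to the median, -0.30 with clusters weighted alike and -0.27 after thinning.

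The ratio of Il6 in neutrophil-like cells (-1.10) turned to 0.19 with no doublet removal. Other ratios changed sign as well. Among them, Osmr in mesenchymal-like cells reached 0.032 and Lifr in osteoblast-like cells 0.039. Socs3 in mesenchymal-like cells reached 0.070, and Osm in macrophage or monocyte-like cells -0.11. Over the alternatives run, Lif ranged from -1.22 to -0.71 in mesenchymal-like and from -1.20 to -0.79 in macrophage or monocyte-like cells, and Il6ra in mesenchymal-like cells from 0.61 to 0.74, each past 1.5-fold throughout. A background subtraction at the higher erythroid share of mesenchymal-like cells (6.53% and 1.37%) was not among them. Il6 (0.17 to 0.94) and Clcf1 (-1.03 to -0.36) in macrophage or monocyte-like cells and Osm in mesenchymal-like cells (0.61 to 1.55) kept their direction. With 1 library a group, differences between mice, batch and treatment cannot be told apart, and small classes rest on few cells.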
